A study of Mus musculus with 16 samples.

Results

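Ciliated ependymal cells form the lining of the brain ventricles. Among 55,675 droplets kept from the hypothalamus and preoptic area of 16 female mice, 1931 (3.47%) were assigned to them. The genes detected in a kept droplet numbered above 200 and below 4000, and mitochondrial genes took less than 15% of its unique molecular identifiers (UMIs, 1 per captured transcript). It was called a ciliated ependymal cell, or member, when at least 3 of 10 marker genes were detected (Tmem212, Ccdc153, Rarres2, Foxj1, Dynlrb2, 1110017D15Rik, Fam183b, Tekt1, Rsph1 and Enkur) and at most 1 of 11 genes of other cell types (Mog, Mag, Snap25, Syt1, Flt1, Cldn5, C1qa, C1qb, Pdgfra, Acta2 and Dcn). Members were thus selected on the detection of these 21 genes, whose levels in the members describe the choice and are no result.

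The mice were of a mixed CD-1 and 129P2 background, carried floxed Esr1 alleles and were 8 to 10 weeks old when injections began. Esr1cKO mice also carried an Nkx2-1Cre transgene, and wild-type denotes their littermates without Cre. Each received subcutaneous tamoxifen at 0.1 mg/kg or corn oil with ethanol as vehicle once a day for 28 injections and was killed 2 h after the last, which gave 3 wild-type oil, 5 wild-type tamoxifen, 4 Esr1cKO oil and 4 Esr1cKO tamoxifen mice, 1 Drop-seq library each. Cells were released with papain on 4 days, 4 mice a day, and the labels do not say which library belongs to which day. Drop-seq reads the 3′ end of a transcript, so Esr1 counts do not show whether the floxed exon was lost, and which ependymal cells had recombined was not measured.

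The ependyma separates the cerebrospinal fluid from the brain tissue, and most of its cells carry a tuft of motile cilia whose beat moves that fluid. The core of a motile cilium, the axoneme, is a ring of doublet microtubules around a central pair. Dynein arms on the doublets make them slide, and radial spokes and the central pair coordinate the beat. Intraflagellar transport carries the parts to the tip. The transcription factors FOXJ1, RFX2, RFX3 and MYB switch the program on, and RFX proteins bind a split palindrome called the X-box. Tanycytes, which line the floor and lower walls of the third ventricle in this region, lack the ciliary tuft.

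Promoter stretches of 5 of the genes described here are shown because they carry letters of the X-box, printed in capitals. They are from RefSeq (GRCm38.p6), are read 5′ to 3′ on the strand of the gene and lie upstream of its start. They are chr11:58801961-58802016 on the reverse strand for Fam183b, chr2:21205366-21205431 on the reverse strand for Enkur, chr1:69826812-69826904 on the forward strand for Spag16, chr6:124779839-124779931 on the reverse strand for Lrrc23 and chr6:73221632-73221707 on the reverse strand for Dnah6.
Fam183b: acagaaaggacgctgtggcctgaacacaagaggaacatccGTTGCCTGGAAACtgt
Enkur: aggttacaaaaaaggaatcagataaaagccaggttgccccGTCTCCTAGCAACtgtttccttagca
Spag16: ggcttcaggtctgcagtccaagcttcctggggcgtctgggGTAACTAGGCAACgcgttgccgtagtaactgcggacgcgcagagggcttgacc
Lrrc23: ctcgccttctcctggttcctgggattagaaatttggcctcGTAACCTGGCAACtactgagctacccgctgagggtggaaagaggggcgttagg
Dnah6: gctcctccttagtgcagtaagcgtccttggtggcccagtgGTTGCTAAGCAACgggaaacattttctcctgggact

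Fam183b and Enkur are markers of the rule, Spag16 encodes a protein of the central pair, Lrrc23 a protein of the radial spoke and Dnah6 a heavy chain of the inner dynein arm. The reduced motif GTNNCNNNGNAAC, searched on both strands (GTTNCNNNGNNAC on the other), was present from 250 bases before to 50 bases after the start in 1027 of 27,025 genes (3.80%). Among 84 genes made up of the rule markers and the motile cilium lists, 67 were matched to RefSeq by symbol, and 26 of these (38.8%) held it. The shorter motif GGCAAC, which can lie within the reduced motif, was found in 32 of the 67 (47.8%) against 14.1% of all genes, and the forkhead motif GTAAACA in 1 (1.49%) against 4.05%. Median GC content was 54.3% in the 67 promoters and 52.7% in all. These are matches of letters and not measured binding sites.

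Members were deeper than other droplets. Their median was 1394 UMIs (lower and upper quartiles 849 and 2303.5) and 980 genes, against 662 UMIs in the other kept droplets, and a median of 5.15% of their UMIs was mitochondrial. They held 3,605,744 UMIs in all, from 40,627 to 604,588 per library, so the libraries with few members weigh least precisely. A member expressed a median of 7 of the 10 markers. The 291 members with 3 markers had a median of 849 UMIs and the 216 with all 10 a median of 4070, so the number of markers followed depth. Tmem212, a membrane protein gene, was detected in 76.4% of members and 0.865% of other droplets, and Foxj1, the master regulator of motile cilia, in 55.2% and 0.921%. Without the excluded genes a further 191 droplets would have passed, and 494 members (25.6%) held 1 of those genes. No doublet caller was run.

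Just outside the threshold were 519 droplets with 2 markers. Sntn, which encodes the ciliary tip protein sentan and was not part of the rule, stood at 109.8 CPM (UMIs scaled to a common library total) in members with 3 markers, 6.99 CPM in droplets with 2 markers and 3.82 CPM in all other droplets. Fam216b stood at 134, 28.2 and 4.32 CPM in the same order. Tanycyte genes were found near the threshold and in the deepest members. Of 12 tanycyte markers, 2 or more were detected in 306 members (15.8%), and this share was 31.6% among members with 3 markers, 5.24% among those with 7 and 21.3% among those with all 10, the deepest.

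Some libraries differed in ways their labels do not explain. The libraries numbered 13 to 16 in the sample titles shared cell barcodes with each other. Each of their 6 pairs had 303 to 359 kept barcodes in common, where at most 1.26 were expected from the number of barcodes, and the UMI totals of a shared barcode were correlated across the libraries (r of the log totals 0.969 to 0.994). Of the 670 members in these 4 libraries, 41 lay on a shared barcode, as did 64 of all 1931. Wild-type oil replicate 2 shared 10 to 42 barcodes with each of the 4, and the other 110 pairs at most 10.

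Wild-type oil replicate 3 and Esr1cKO tamoxifen replicate 3, numbered 10 and 11, stood apart from the other 14 libraries. They lay at 53.1 and 54.5 on the first principal component of the members' expression, against -24.5 to -1.6 for the rest. Their deposited barcodes held at least 100 genes each, while the minimum in each other library was 20. They are an oil control and a tamoxifen-treated mouse of the other genotype, so the main comparisons below are also given without them. On the second component Esr1cKO tamoxifen replicate 2 lay at -63.4, against -4.9 to 26.0 for the other libraries.

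Esr1, the gene targeted in the Esr1cKO mice, was read at a low level in ciliated ependymal cells of every library, with 105 UMIs in all. It stood at 89.9, 64.4 and 9.92 CPM in the wild-type oil libraries and at 28.9, 57.4, 27.2, 37.1 and 29.5 CPM in the wild-type tamoxifen libraries. It stood at 26.0, 39.98, 31.1 and 33.4 CPM in Esr1cKO oil and 16.02, 49.2, 4.55 and 47.3 CPM in Esr1cKO tamoxifen. All 4 groups overlapped, and the difference between genotypes was -0.37 on the log2 scale (SE 0.50, edgeR quasi-likelihood adjusted p = 0.9999), and without the 2 libraries Esr1 had too few UMIs to be tested. Because only the 3′ end is counted, these values do not check the deletion.

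The axoneme genes, which took no part in the choice of members apart from the markers named above, followed the label. Levels here are CPM, which were not divided by transcript length, so each gene is compared with itself in other droplets. The outer dynein arm, the main motor of the beat, had 12 genes with at least 100 UMIs in members, at a median of 13.4 times their level in other droplets, and 11 of them were higher in members in every library. Across all 6988 genes outside the rule with that many UMIs the median was 1.04 times, and 960 were higher in every library. Dnah5, a heavy chain of this arm, ranged from 126 to 590.3 CPM (median 289.8) against a mean of 20.2 CPM in other droplets. These ratios belong to the contrast that chose the cells and are given without a test.

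The inner dynein arms and the nexin-dynein regulatory complex, which shape the bend of the cilium, stood at a median of 13.9 times the level of other droplets (16 of 17 genes higher in every library). Dnah12, an inner arm heavy chain, ranged from 347 to 1069 CPM, with 14.9 CPM in other droplets. Genes for the cytoplasmic assembly of dynein arms had a median ratio of 20.9 (7 of 9 higher in every library). Dnaaf3, an assembly factor, averaged 172 CPM against 3.81 CPM. Each of these groups lay above the median gene.

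Radial spoke genes had a median ratio of 5.47, the lowest of the structural groups, with 8 of 9 higher in every library. Rsph4a, of the spoke head, averaged 479 CPM against 12.1 CPM. Central pair genes had a median ratio of 14.04 (5 of 6), led by Spef2 at 731 CPM against 26.9 CPM. Tektins and other proteins of the doublet microtubules had the highest median of the structural groups, 26.3 (14 of 17). Mns1, a protein inside the doublets, averaged 721 CPM and ranged from 367 to 1111 CPM. The range over 16 libraries was small beside the distance to other droplets, in which Mns1 averaged 16.1 CPM.

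Axonemal tubulins and the enzymes that modify them had a median ratio of 6.57, with 7 of 9 genes higher in every library. Tuba1a, the most abundant and a tubulin of most cells, was only 2.10 times higher. Intraflagellar transport genes, which primary cilia of other cells also need, had a median ratio of 3.13 (17 of 25), and Ift74, a subunit of the transport train, averaged 390.4 CPM against 83.7 CPM. Of the regulators, Myb averaged 126 CPM against 2.75 CPM. No UMI of it was read in tanycyte-like droplets, which were chosen to hold at most 2 rule markers. Rfx2 averaged 109.5 against 10.52 CPM and Rfx3 221 against 65.1 CPM.

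**Figure D1:**
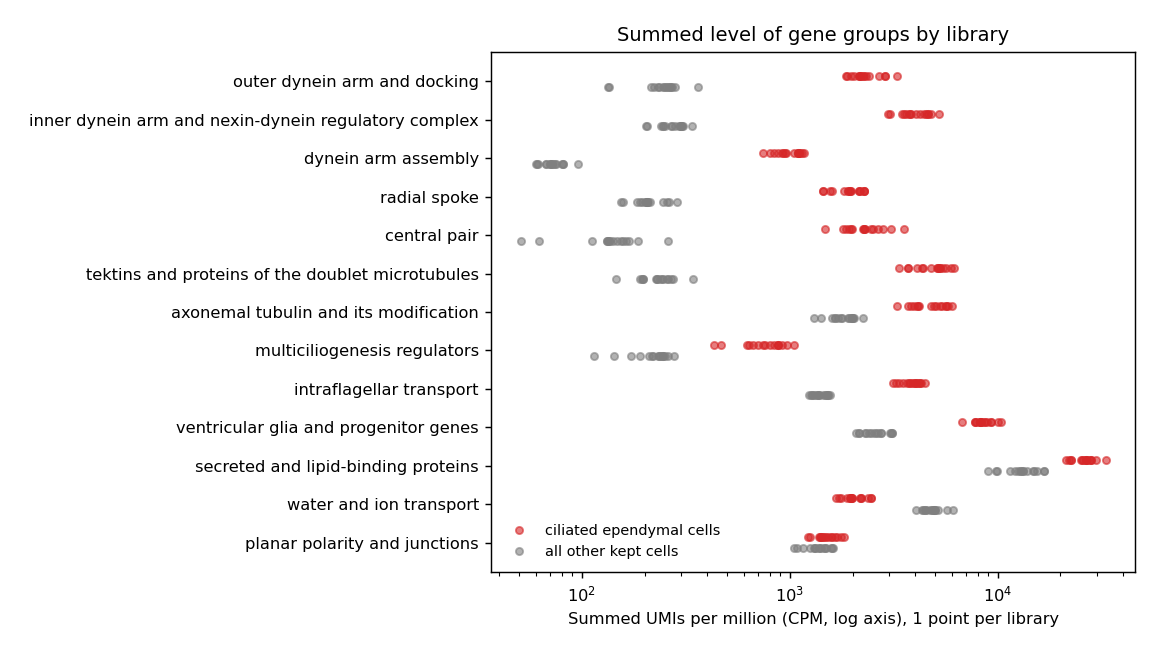
Summed level of 13 gene groups (y axis) in CPM on a log axis (x axis), 1 point per library, in ciliated ependymal cells (red) and all other kept droplets (grey). The structural groups of the cilium are separated in all 16 libraries, central pair genes at 1474 to 3542 CPM in ciliated ependymal cells, while planar polarity and junction genes overlap.

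The genes with the largest ratios were not all known parts of the cilium. Among genes outside the rule, the 15 largest ran from 99.4 for 3300002A11Rik to 68.7 for 1700001C02Rik. They included Sntn (97.8), the cadherin-related Cdhr4 (80.0), Dmkn (75.3), Stoml3 (71.2) and the dynein light chain gene Tctex1d4 (70.7). Sntn ranged from 126 to 455 CPM over the libraries, lowest in wild-type oil replicate 1. Fam216b, Tctex1d4, Gm11721, Cdhr4 and Slc35g3 averaged under 1 CPM in tanycyte-like droplets, at 0.665, 0.847, 0, 0 and 0. Those droplets were chosen to hold at most 2 rule markers, so low levels of such genes there follow in part from that choice. Of the 6988 genes, 298 stood over 10 times their level in other droplets.

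Ventricular glia and progenitor genes were shared with tanycytes. Their median ratio was 2.63 to all other droplets and 1.04 to the 549 tanycyte-like droplets (at least 3 tanycyte markers, at most 2 rule markers and at most 1 excluded gene). Sox9, a glial transcription factor, averaged 839.5 CPM in members, 801 CPM in tanycyte-like and 133 CPM in other droplets. Nnat, encoding neuronatin, averaged 3238 and 3167 CPM in members and tanycyte-like droplets, and Vim, encoding the intermediate filament vimentin, 973 and 478 CPM. Vim was higher in members than in tanycyte-like droplets in 16 of 16 libraries, Nnat in 9.

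Dbi, which encodes the acyl-CoA-binding protein, was the most abundant of the secreted and lipid-binding proteins. It averaged 10,781 CPM in members (6757 to 14,789), 1692 CPM in tanycyte-like and 793 CPM in other droplets. Hsp90aa1, a cytosolic chaperone, averaged 6118 CPM against 1589 CPM and was higher in members in every library. Etfa and Acadm, enzymes of fatty acid oxidation, were 4.22 and 3.02 times higher, also in every library, while the fatty acid metabolism list as a whole had a median ratio of 0.979. Nuclear genes of oxidative phosphorylation had a median ratio of 0.809.

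Astrocyte markers had a median ratio of 0.616 to other droplets (0.158 to 3.54), with 2 of 11 higher in members in every library. Aqp4, the water channel, averaged 468 CPM in members, 134 CPM in other droplets and 709 CPM in the 14,010 astrocyte-like droplets (at least 3 astrocyte markers, at most 2 rule markers, at most 2 tanycyte markers and at most 1 excluded gene). The gap junction gene Gja1 averaged 618, 394 and 2146 CPM in the same order. Aqp4 and Gja1 lie above most of that list and belong to the markers that chose the astrocyte-like droplets, so their level there describes that choice. The water and ion transport list had a median ratio of 0.637 to other droplets, and planar polarity and junction genes had a ratio of 1.01.

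Markers of other cells differed in their level in members. The long noncoding RNA Meg3, of neurons, averaged 699 CPM against 3376 CPM in other droplets. Of the microglia markers, Cx3cr1, a chemokine receptor gene, was at 197 CPM in both, while Tmem119, Trem2 and Tyrobp averaged 0.337, 1.27 and 1.27 CPM in members against 46.4, 75.4 and 107 CPM. The summed level of the 12 tanycyte markers ranged from 296 to 2552 CPM over the libraries (median 983 against 506 CPM in other droplets), with Col23a1 the most abundant (254 CPM) and Adm close to 0 (6 UMIs in all). In wild-type oil replicate 1, the library at the top of that range, 13 of the 29 members had 3 rule markers and 13 held 2 or more tanycyte markers. The red blood cell genes Hbb-bs, Hba-a1 and Hba-a2 averaged 159, 80.1 and 79.6 CPM in members, each below the level in other droplets in every library.

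Ttr, encoding transthyretin, the leading product of the choroid plexus, came from a few droplets of 1 library. In wild-type tamoxifen replicate 2 it reached 92,079 CPM, and 3 of the 46 members held 2027 to 3384 of its UMIs each, with 5100 to 6721 UMIs and 3 or 4 rule markers per droplet. The highest count in a member outside that library was 19 UMIs. The summed level of the 13 choroid plexus markers was 97050.5 CPM in that library and 258.5 CPM in the next highest wild-type tamoxifen library. Whether these 3 droplets hold choroid plexus cells, or such a cell together with an ependymal cell, was not tested.

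The share of kept droplets that were ciliated ependymal cells was 1.66, 2.42 and 8.96% in the wild-type oil libraries, a mean of 4.35% ± 4.01 (SD, n = 3). It was 1.25, 1.47, 4.13, 5.04 and 3.37% in wild-type tamoxifen (3.05% ± 1.65, n = 5). In Esr1cKO oil it was 1.08, 1.58, 3.47 and 2.27% (2.10% ± 1.04, n = 4), and in Esr1cKO tamoxifen 1.38, 1.27, 6.32 and 4.96% (3.48% ± 2.55, n = 4). The 4 groups overlapped throughout.

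None of the 3 comparisons of shares passed an exact two-sided permutation test over libraries. The wild-type difference between tamoxifen and oil was -1.30 percentage points (exact permutation p = 0.607, smallest possible 0.0179), the Esr1cKO difference 1.39 points (exact permutation p = 0.371, smallest possible 0.0286) and the genotype difference -0.747 points (exact permutation p = 0.534), with Benjamini-Hochberg adjusted values of 0.607 for each. Wild-type oil replicate 3 held the highest share, and without it the wild-type difference had the opposite sign (1.01 points, exact permutation p = 0.476), as had the genotype difference (0.0272 points, exact permutation p = 0.977).

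The share followed the library number more than the group. The libraries numbered 1 to 8 held 1.08 to 2.42% (median 1.43%) and those numbered 9 to 16 held 2.27 to 8.96% (median 4.55%), with all 4 groups in each run of 8. After every droplet was thinned to 500 UMIs the ranges were 1.001 to 1.87% and 2.20 to 9.96%. Within runs of 4 successive numbers the wild-type difference was -0.410, -0.950 and -4.82 points, with no oil library in the last, and the Esr1cKO difference 0.303, -0.304, 2.85 and 2.69 points. The labels give no meaning to these numbers, and no test was made of this split, which was noticed in the data.

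**Figure D2:**
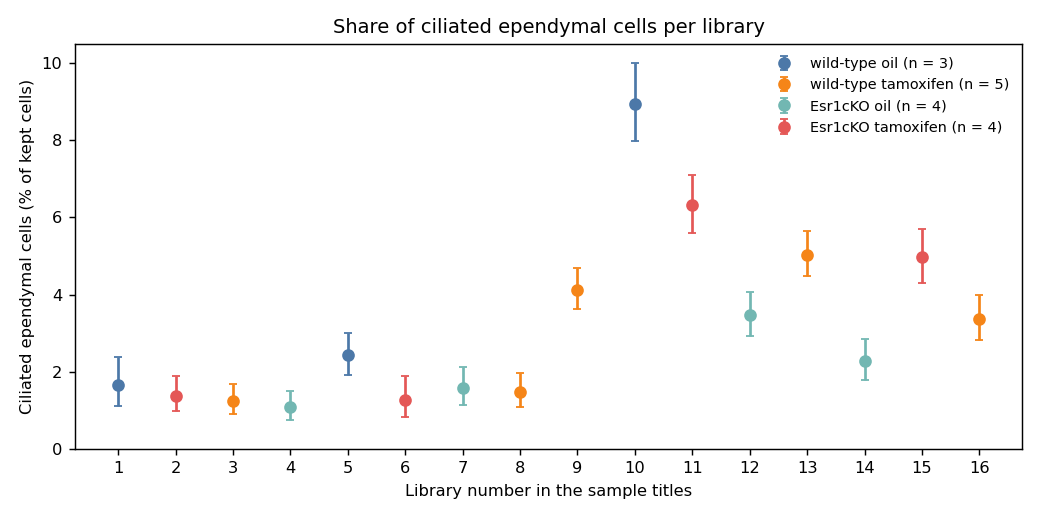
Share of kept droplets that were ciliated ependymal cells (y axis, percent) in each library (points), against the library number (x axis). Bars are the exact 95% interval of each library. They cover counting error only and not the spread between mice. Wild-type oil replicate 3 is highest at 8.96%, and the groups overlap.

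Expression was then compared between groups with the UMIs of the members summed per mouse, so that the mouse and not the cell was the replicate. The 4 groups entered 1 edgeR quasi-likelihood fit of 5689 genes, and fold changes are log2 with SE. No gene passed an adjusted p of 0.05 when wild-type mice given tamoxifen were set against oil (0% of the 5689), nor in Esr1cKO mice (0%), for the difference of the tamoxifen effect between genotypes (0%) or for genotype over both treatments (0%). DESeq2 also called no gene in any of the 4. The smallest adjusted p was 0.0753, for Akap6 in the difference between genotypes, and 0.821 or more in the other comparisons. In a simulation of the wild-type comparison on these 5689 genes, a log2 change of 2 was recovered for 77.5% of 200 changed genes and a change of 1 for 0.5%, so changes of that lesser size were not detectable here.

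At an unadjusted p under 0.05, edgeR found 132 genes higher (2.32% of those tested) and 80 lower (1.41%) with tamoxifen in wild-type mice, and 75 higher (1.32%) and 97 lower (1.71%) in Esr1cKO mice. DESeq2 found 100 and 90 genes in both directions together. For the difference of the effect between genotypes there were 101 genes higher (1.78%) and 248 lower (4.36%), 158 in DESeq2, and for genotype 53 higher (0.932%) and 65 lower (1.14%), 62 in DESeq2. The counts below are read against these shares.

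No gene of the motile cilium lists passed the unadjusted threshold in wild-type mice. There, 0 of 12 tested genes of the outer dynein arm, 0 of 17 of the inner arm, 0 of 7 of dynein assembly, 0 of 9 of the radial spoke, 0 of 6 of the central pair, 0 of 14 of the doublet proteins, 0 of 6 regulators and 0 of 25 of intraflagellar transport had an unadjusted p under 0.05 in either direction. Their median log2 fold changes lay between -0.09 for the doublet proteins and 0.20 for the outer arm, beside -0.005 for all genes. Without the 2 libraries they lay between -0.12 for dynein assembly and 0.28 for the central pair (6 of 6 genes higher), with 0.21 for intraflagellar transport (18 of 24 higher). In Esr1cKO mice the medians of these lists lay between -0.04 and 0.11, and between -0.14 and 0.19 without the 2 libraries. The tubulin list had a median of 0.18 there, or 0.27 without them. The genes past the unadjusted threshold were Ift27 (0.63, SE 0.30, edgeR adjusted p = 0.999) and, among 9 tubulin genes, Tuba1c (0.62, SE 0.28, edgeR adjusted p = 0.999).

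Mns1, of the doublet proteins, shows the spread behind these medians. It stood at 557, 854 and 779 CPM in wild-type oil and 477, 367, 811, 796 and 719 CPM in wild-type tamoxifen. Esr1cKO oil libraries had 637, 869.7, 614 and 746 CPM, and Esr1cKO tamoxifen libraries 689, 542, 1111 and 971 CPM. The groups overlapped, and the difference was -0.22 (SE 0.26) in wild-type and 0.26 (SE 0.26) in Esr1cKO mice, with edgeR adjusted p = 0.9996 and 0.999, or -0.15 and 0.08 without the 2 libraries. Dnah6, whose promoter is printed above, ranged from 179.7 CPM in wild-type oil replicate 1 to 546 CPM in Esr1cKO oil replicate 4, and its difference was 0.28 (SE 0.27) in wild-type mice.

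In wild-type mice the 5 genes with the smallest unadjusted p among those higher with tamoxifen were Fry, Map2k6, Synpr, Akap6 and Arl15. Fry, a microtubule-associated protein gene, was read at 18.0, 23.4 and 8.27 CPM with oil and at 101, 57.4, 65.3, 68.1 and 40.6 CPM with tamoxifen, and the groups did not overlap (2.18, SE 0.51, edgeR adjusted p = 0.9996). In Esr1cKO mice Fry was at 65.0, 49.98, 62.3 and 33.4 CPM with oil and 16.02, 49.2, 20.5 and 47.3 CPM with tamoxifen. Its 3 wild-type oil values were thus the lowest of that genotype, and the library that stands apart held the lowest of all. Map2k6, a kinase upstream of p38, was at 0, 23.4 and 1.65 CPM with oil and 36.9 to 86.7 CPM with tamoxifen (2.71, SE 0.73), and without the 2 libraries neither it nor Fry had enough UMIs to be tested. With 1 library left out the value of Map2k6 was 1.47 without wild-type oil replicate 3 and 4.53 without wild-type oil replicate 2. The values of Synpr, Akap6 and Arl15 were 1.89, 1.13 and 2.38 with all 16 libraries and 0.998, 0.65 and 1.12 without the 2. With 1 library left out in turn, Arl15 ranged from 1.11 to 3.87.

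Akap6, which anchors protein kinase A at the nuclear envelope, had opposite signs in the genotypes. It was read at 53.9, 81.9 and 34.7 CPM with oil and 130.02, 80.4, 103, 136 and 122 CPM with tamoxifen in wild-type mice (1.13, SE 0.33, edgeR adjusted p = 0.9996). In Esr1cKO mice it was read at 117, 169.9, 109 and 150.4 CPM with oil and 64.1, 49.2, 29.6 and 61.8 CPM with tamoxifen (-1.50, SE 0.33, edgeR adjusted p = 0.821), and these groups did not overlap. The difference of the effect was -2.63 (SE 0.47, edgeR adjusted p = 0.0753) and had the smallest p of the fit. It was -1.80 without the 2 libraries (edgeR adjusted p = 0.999), with the same sign.

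Among genes lower with tamoxifen in wild-type mice, Sh3bgrl3, encoding a small thioredoxin-like protein, was at 89.9, 81.9 and 69.5 CPM with oil and 14.4, 11.5, 2.72, 45.4 and 14.7 CPM with tamoxifen, without overlap (-1.92, SE 0.56, edgeR adjusted p = 0.9996). The beta-tubulin gene Tubb2b was at 162, 64.4 and 74.4 CPM with oil and 27.2 to 45.4 CPM with tamoxifen, also without overlap (-1.28, SE 0.36). Fam115a (-1.26, SE 0.35), 2610507B11Rik (-0.92, SE 0.29) and Impact, a regulator of the translation kinase GCN2 (-1.22, SE 0.39), completed the 5. With 1 library left out in turn, the value of Sh3bgrl3 ranged from -2.99 to -1.54. Without the 2 libraries all 5 kept their sign, from -0.92 for 2610507B11Rik to -1.99 for Sh3bgrl3, with edgeR adjusted p of 0.876 for Fam115a and 0.999 for the others.

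In Esr1cKO mice the haemoglobin genes led the genes higher with tamoxifen. Hbb-bs was at 26.0, 99.96, 37.4 and 33.4 CPM with oil and 32.05, 320.0, 1116 and 36.4 CPM with tamoxifen, so 2 of the 4 treated libraries stood above the oil range and 2 within or near it (3.18, SE 0.77, edgeR adjusted p = 0.821). The value of 1116 CPM was from replicate 3, which stands apart, and without the 2 libraries the difference was 0.73. Hba-a1 and Hba-a2 followed the same libraries, at 3.72 (SE 0.88) and 3.03 (SE 0.89). Without the 2 libraries Hba-a1 was at 0.81 and Hba-a2 was not tested. These genes are made by red blood cells, and the part of red blood cell RNA in these droplets was not tested.

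Outside the haemoglobins, Tomm40, the pore of the mitochondrial import machinery, was at 26.0, 19.99, 37.4 and 27.8 CPM with oil and 48.1, 73.8, 56.9 and 87.3 CPM with tamoxifen, without overlap (1.18, SE 0.37, edgeR adjusted p = 0.999). Cog7, of a Golgi tethering complex, had 1.64 (SE 0.49), and 0.80 without the 2 libraries. Among genes lower with tamoxifen beside Akap6, Enox2 was at 91.0, 60.0, 46.7 and 77.96 CPM with oil and 16.02, 24.6, 15.9 and 25.5 CPM with tamoxifen, without overlap (-1.68, SE 0.43). Ap4s1, an adaptor subunit, Ppm1a, a protein phosphatase, and Ppp3cc, a calcineurin subunit, had -1.73, -1.33 and -1.57, and Ppp3cc was at -2.79 without Esr1cKO tamoxifen replicate 4. These 4 lay between -0.93 and -1.58 without the 2 libraries, and Tomm40 at 1.30.

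The genes with the smallest unadjusted p for the difference of the effect between genotypes repeated these patterns, because that contrast is made of the same groups. Besides Akap6, Fry (-2.87, SE 0.69), Map2k6 (-3.69, SE 0.94), the extracellular matrix gene Tnr (-2.81, SE 0.66) and the nuclear receptor coactivator gene Ncoa6 (-2.08, SE 0.53) had a lower value of the effect in Esr1cKO mice, and Hba-a1, Hbb-bs, Hba-a2, the chaperone gene Dnaja1 (1.01, SE 0.29) and the ferritin gene Ftl1 (2.01, SE 0.62) a higher value. Dnaja1 was at 341, 293 and 407 CPM in wild-type oil and 289, 207, 185, 254 and 239.7 CPM in wild-type tamoxifen. In Esr1cKO mice it was at 338, 329.9, 302 and 267 CPM with oil and 449, 468, 385 and 349 CPM with tamoxifen. The treated and oil groups did not overlap in either genotype, which was not counted over all genes, and the edgeR adjusted p of the difference was 0.753. The difference of the effect without the 2 libraries was -1.35 for Tnr, -1.89 for Ncoa6, 0.81 for Dnaja1, 2.26 for Ftl1 and 1.08 for Hba-a1 and Hbb-bs, while Fry, Map2k6 and Hba-a2 were not tested. Of the cilium genes, Dnah9 (-0.91), Dnah7b (-1.30), Spag16 (-1.04) and Wdr35 (-0.74) had a lower value and Tuba1c (1.14) and Tubb4b (0.92) a higher value at an unadjusted p under 0.05. These were 1 of 12 tested outer arm, 1 of 17 inner arm, 1 of 6 central pair and 1 of 25 intraflagellar transport genes, and 2 of 9 tubulin genes. The lists of dynein assembly, radial spoke, doublet proteins and regulators had 0. Over all genes 4.36% were lower and 1.78% higher, and the cilium genes were not tested as a set. Tuba1c (1.15) and Wdr35 (-0.98) remained under that threshold without the 2 libraries, and Dnah9 (-0.61), Dnah7b (-0.70), Spag16 (-0.47) and Tubb4b (0.23) did not. Dnah9, Dnah7b, Wdr35 and Tubb4b were named after their values were seen.

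Between genotypes, Vps54, of a Golgi retrieval complex (1.38, SE 0.39), the clock gene Per2 (1.30, SE 0.39), the chromatin remodeller gene Smarcad1 (1.001, SE 0.34), Azi2 (0.75, SE 0.21) and the nuclear matrix gene Matr3 (0.45, SE 0.15) had the smallest p among genes higher in Esr1cKO mice. Vps54 was at 0 to 53.6 CPM over the 8 wild-type libraries and 25.05 to 96.1 CPM over the 8 Esr1cKO libraries. Lower in Esr1cKO mice were Pus7, a pseudouridine synthase gene (-0.75, SE 0.23), 0610009L18Rik (-0.72), the myosin light chain gene Myl9 (-0.76), the brain fatty acid-binding protein gene Fabp7 (-1.01) and the splicing factor gene Sf3b4 (-1.01). Pus7 was at 169.6 to 228 CPM in wild-type and 64.1 to 194 CPM in Esr1cKO libraries, and without the 2 libraries its difference was -1.11 (edgeR adjusted p = 0.128). The edgeR adjusted p over all 16 libraries was 0.9999 for each of the 10, and without the 2 libraries all 10 kept their sign.

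A list of 156 genes that the study drew from ependymal cells of these same mice is no independent evidence, and its behaviour depended on the libraries that stand apart. Of the 150 tested genes of this list outside the rule, 7 were higher and 14 lower at an unadjusted p under 0.05 with tamoxifen in wild-type mice, and 1 and 1 in Esr1cKO mice, with 0 past an adjusted p in edgeR or DESeq2. The median log2 difference was 0.58 in wild-type and -0.35 in Esr1cKO mice, against -0.005 and -0.03 for all genes. Of the 150, 122 had opposite signs in the genotypes. Without wild-type oil replicate 3 and Esr1cKO tamoxifen replicate 3 the medians were -0.05 and -0.06. With 1 library left out in turn they ranged from -0.06 to 1.08 in wild-type and from -0.58 to -0.06 in Esr1cKO mice.

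Most genes of the list stood low in those 2 libraries themselves. The median deviation of its genes from their mean over libraries, in log2(CPM + 1), was -2.01 in wild-type oil replicate 3 and -1.91 in Esr1cKO tamoxifen replicate 3, and between 0.10 and 0.42 in each other library. The most abundant genes of the list, the mitochondrial ribosomal RNA gene mt-Rnr2 and the nuclear noncoding RNA gene Malat1, were higher there (log2 ratio to the other 14 libraries 1.14 and 0.62), and the summed list was at 93,988 and 132,745 CPM, within the range of 73,829 to 148,843 CPM of the others. Both lower values fall in arms that enter the 2 treatment comparisons with opposite sign, the oil arm of one genotype and the tamoxifen arm of the other. The median ratio of the list to other droplets was 1.11, close to that of all genes.

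Single genes of the list were at or near 0 in both. Whether these 2 libraries were counted with the same settings as the others is not given in the sources used here, so a value of 0 does not show that the cells lacked the transcript. Myo3a, encoding an unconventional myosin, had no UMI in either library and 2077 to 4780 CPM in the other 14. 4933405E24Rik had 0 against 741 to 1528 CPM, and Gpr133, an adhesion receptor gene also called Adgrd1, 0 against 179.7 to 579 CPM. Ssh2, a cofilin phosphatase gene, had 8.27 and 4.55 CPM against 1096 to 2089 CPM. These 4 genes, chosen after their values were seen, were read in each of the 14 other libraries of all 4 groups. Myo3a averaged 2899 CPM in members, 3860 CPM in tanycyte-like and 4081 CPM in astrocyte-like droplets.

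**Figure D3:**
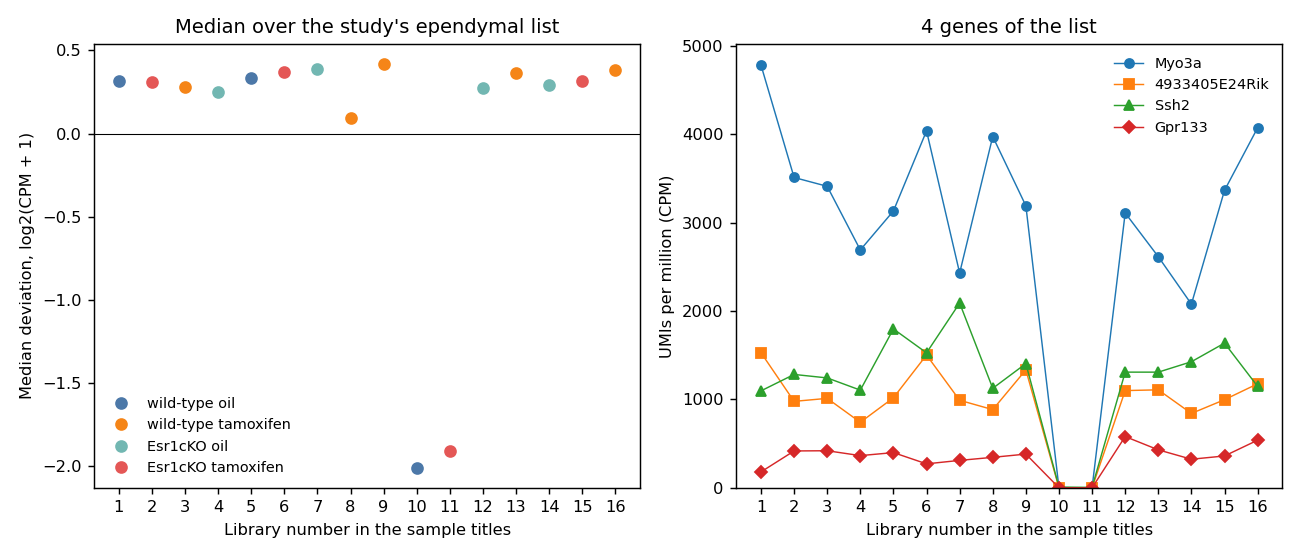
Left, median deviation of the tested genes of the study's ependymal list from their mean over libraries (y axis, log2(CPM + 1)) against the library number (x axis), coloured by group. Right, CPM of Myo3a, 4933405E24Rik, Ssh2 and Gpr133 in each library, where libraries 10 and 11 lie at or near 0 and all others far above.

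The pattern went beyond the list and beyond the ependymal cells. Of 2721 genes with at least 300 UMIs in members, 245 (9%) lay below the range of the other 14 libraries in both and 80 (2.94%) above it. Of the 142 such genes of the study's list, 89 (62.7%) lay below and 5 above. In all other droplets of the same 2 libraries 241 of the 245 were lower as well, by a median log2 ratio of -2.17. The 245 genes spanned a median of 259 kb of genome in RefSeq against 30.0 kb for all genes, and the share of members' UMIs on genes over 100 kb was 11.4 and 11.5% in the 2 libraries and 17.3 to 22.1% in the rest. In other droplets it was 11.8 and 12.2% against 18.3 to 22.3%. The part of gene length in the difference was not tested.

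Pathways outside the cilium showed small median shifts in wild-type mice. No gene of these lists passed an adjusted p of 0.05, and no list was tested as a set. The median was -0.12 for 75 cytosolic ribosomal protein genes (1 lower, Rpl13, at an unadjusted p under 0.05), -0.11 for 75 nuclear genes of oxidative phosphorylation (2 lower, Cox5a and Ndufb11), -0.38 for 16 glycolysis genes (0) and -0.20 for 21 genes of fatty acid metabolism (0). It was -0.29 for 19 immediate early genes (0) and -0.26 for 18 chaperone genes (2 lower, Hspa8 and Dnaja1). In that order 60 of 75, 50 of 75, 14 of 16, 16 of 21, 17 of 19 and 16 of 18 genes were lower. Without the 2 libraries 36 of 75, 33 of 75, 11 of 15, 12 of 20, 18 of 19 and 11 of 17 were lower. The medians were then 0.01, 0.04, -0.45, -0.08, -0.31 and -0.17. Without the libraries numbered 13 to 16, which share barcodes, they were -0.23, -0.04, -0.20, -0.02, -0.07 and -0.19 over the 74, 66, 9, 14, 18 and 15 genes still tested.

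In Esr1cKO mice the same lists lay at 0.04, 0.11, 0.01, 0.06, 0.15 and 0.14 in that order, and at -0.01, 0.01, -0.08, 0.06, 0.13 and -0.03 without the 2 libraries. Whether the lists differ between the genotypes was not tested. The summed level of the glycolysis list, which is led by Aldoc, Aldoa and Ldhb, was 2541 ± 518 CPM (SD, n = 3) in wild-type oil, 2012 ± 300.4 in wild-type tamoxifen (n = 5), 2025 ± 552 in Esr1cKO oil (n = 4) and 2004 ± 241 in Esr1cKO tamoxifen (n = 4). Aldoc averaged 383 CPM in members and 1136 CPM in tanycyte-like droplets. It stood at 2818 CPM in astrocyte-like droplets, for which it is one of the choosing markers, and the part of such RNA in these values was not tested.

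Tanycyte markers had a lower median in wild-type mice than the pathways above. Of 10 tested, 2 were lower with tamoxifen at an unadjusted p under 0.05, Gpr50 (-1.46, SE 0.54) and Crym (-1.17, SE 0.55), and the list's median was -0.99, or -1.38 without the 2 libraries. In Esr1cKO mice the median was -0.54 (9 of 10 lower) with 0 past that threshold, or -0.31 (6 of 10 lower) without the 2 libraries. Gpr50, an orphan receptor gene, was at 162, 164 and 134 CPM in wild-type oil and 86.7, 34.4, 5.44, 51.6 and 114 CPM in wild-type tamoxifen. The summed markers were at 1506 ± 934 CPM (SD, n = 3) with oil and 874 ± 322 CPM (n = 5) with tamoxifen, and overlapped. The rule admits droplets with tanycyte markers, so a change within ependymal cells and one in the number of such droplets cannot be told apart here. The 4 tested neuron markers had medians of -0.30 in wild-type (2 lower) and -0.66 in Esr1cKO mice (4 lower). In each genotype 1 was lower at an unadjusted edgeR p under 0.05. Without the 2 libraries the medians were -0.33 and -0.58, with 4 lower in each. The part of neuronal RNA in these values was not tested.

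**Figure D4:**
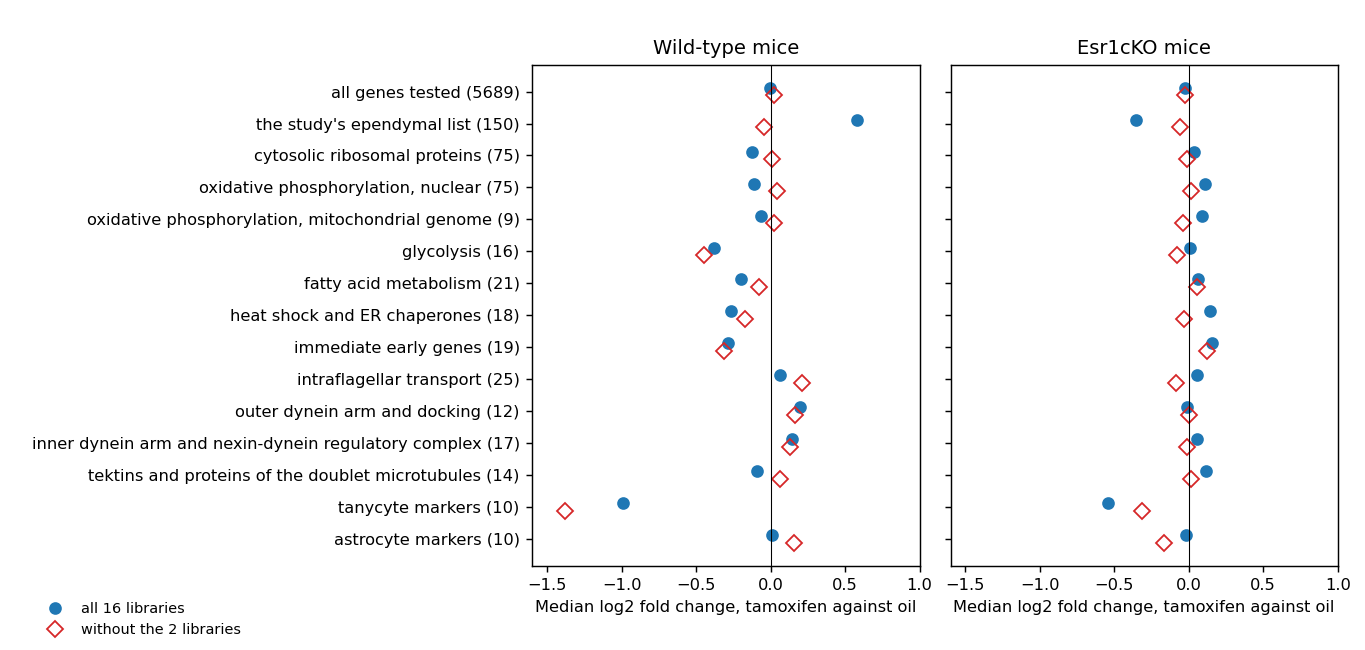
Median log2 fold change of tamoxifen against oil (x axis) over the tested genes of each list (y axis, number tested in brackets) in wild-type (left) and Esr1cKO mice (right), with all 16 libraries (filled) and without the 2 libraries that stand apart (open). The study's list moves from 0.58 to -0.05 in wild-type mice, and the 4 cilium lists shown lie between -0.09 and 0.21 there.

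Nuclear receptors were scarce in ciliated ependymal cells. Esr1 was detected in 97 members (5.02%, 95% exact Clopper-Pearson interval 4.09 to 6.09%) and 3.88% of other droplets, Esr2 in 69 (3.57%) and 0.917%, and Nkx2-1, the gene whose regulatory sequence drives the Cre, in 95 (4.92%) and 1.32%. Esr1 and Nkx2-1 were read together in 12 members (0.621%). Members are deeper than other droplets, so each was also thinned to 500 UMIs, which left 1778 members and 35,510 others. Esr1 was then found in 1.35% of members (0.867 to 2.002%) and 1.99% of others, Esr2 in 0.844% and 0.476%, and Nkx2-1 in 1.12% and 0.600%. Tanycyte-like droplets had 3.46, 1.35 and 5.58%, and astrocyte-like droplets 2.11, 0.449 and 0.744%. Without the 2 libraries that stand apart, where Esr1 was read in few droplets of any kind, it was found in 1.59% of members (0.973 to 2.44%), 2.23% of others, 3.84% of tanycyte-like and 2.40% of astrocyte-like droplets. Esr2 was then at 1.19% of members (0.668 to 1.96%) against 0.550% of others, and Nkx2-1 at 1.11% (0.609 to 1.86%) against 0.589%. The thinned share of Esr1 in members was no higher than in the other sets and cannot be told from RNA free in the droplets.

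By level, Esr2, the other nuclear estrogen receptor, averaged 27.0 CPM in members against 9.86 CPM in other droplets and was higher in 13 of 16 libraries. Its group means were 21.7 ± 19.1 in wild-type oil, 21.3 ± 18.3 in wild-type tamoxifen, 26.7 ± 9.32 in Esr1cKO oil and 38.3 ± 27.4 CPM in Esr1cKO tamoxifen (SD, n = 3, 5, 4 and 4). No UMI of it was read in either of the 2 libraries that stand apart. In Esr1cKO mice the other 3 tamoxifen libraries had 64.1, 49.2 and 39.998 CPM and the oil libraries 25.99, 39.98, 18.7 and 22.3 CPM. The lowest of these 3 tamoxifen values all but equalled the highest oil value, and each rests on few UMIs. The other 2 wild-type oil libraries had 35.9 and 29.3 CPM, within the wild-type tamoxifen range of 3.69 to 51.6 CPM. It was not tested, since with 74 UMIs it was below the filter. Nr3c1, the glucocorticoid receptor, was the most abundant receptor with 90.6 CPM and was lower than in other droplets (211 CPM) in all 16 libraries. Its difference with tamoxifen was -0.03 (SE 0.31) in wild-type and -0.22 (SE 0.32) in Esr1cKO mice, or 0.04 and -0.38 without the 2 libraries. Nr3c2, the mineralocorticoid receptor, averaged 63.4 CPM, and its difference was -1.22 (SE 0.69, edgeR adjusted p = 0.999) in Esr1cKO mice and -0.11 (SE 0.69) in wild-type mice. Without the 2 libraries these were -0.53 (SE 0.46) and -1.04 (SE 0.45), the latter with an unadjusted edgeR p of 0.026 and an adjusted p of 0.999.

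Gper1, a membrane estrogen receptor gene, and Pgr, the progesterone receptor gene and a target of ERα, had 8 UMIs each in all members, and Greb1, another estrogen target, 26. Nkx2-1 averaged 31.8 ± 21.2, 50.4 ± 48.7, 38.8 ± 19.1 and 42.1 ± 21.2 CPM in the 4 groups in the order given (SD). In tanycyte-like droplets it averaged 98.3 CPM. Esr1, Nr3c1, Nr3c2 and Nkx2-1 passed the filter for a test, and none of these 4 had an unadjusted p under 0.05 in edgeR for any of the 4 contrasts over all 16 libraries.

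**Figure D5:**
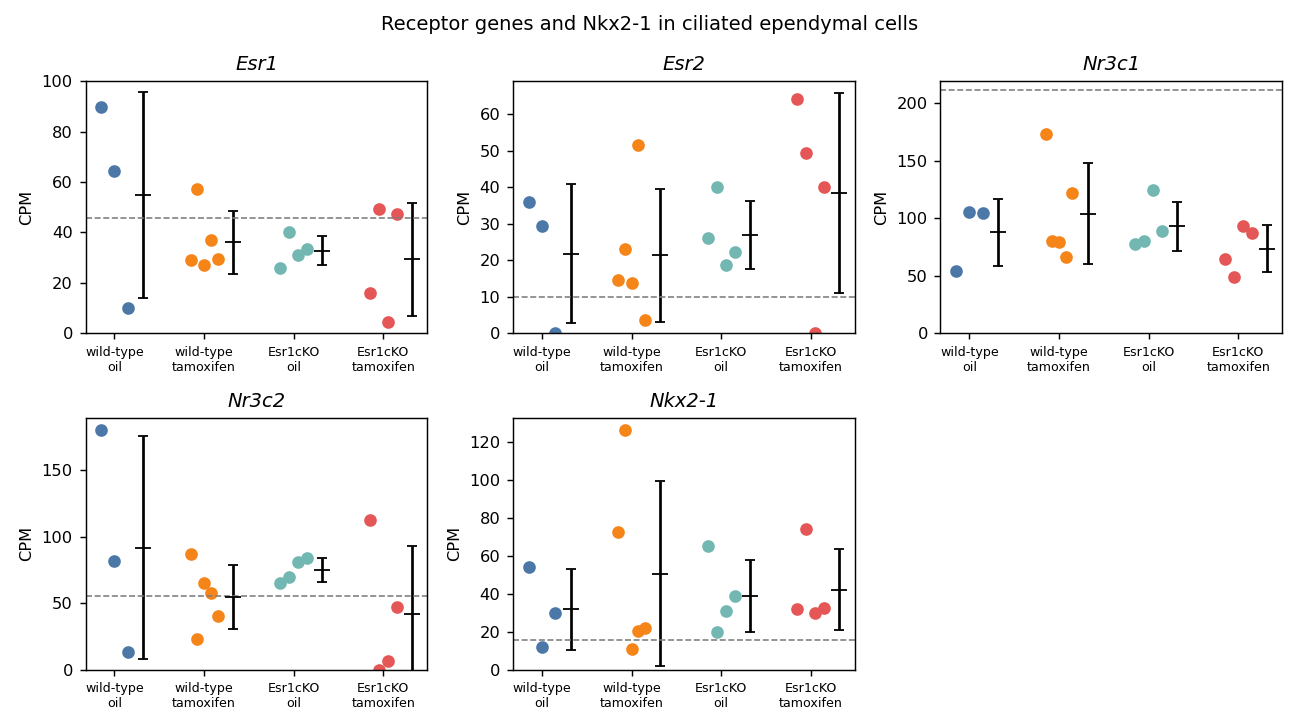
Level of receptor genes and Nkx2-1 in ciliated ependymal cells (y axis, CPM) by group, 1 point per library, with the mean and SD of the group in black, cut at 0, and the mean of all other droplets as a dashed line. Nr3c1 lies below the other droplets in all 16 libraries, and no gene separates the groups over all 16 libraries.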

How the data were processed

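Drop-seq libraries from 16 mice were analysed. Per the submitters' processing notes, reads were aligned with STAR 2.6 to mm10 and analysed with Seurat, and the authors deposited 1 matrix of UMI counts per library, not normalized. Here 0 columns were left unused, and no cell annotation was read, so the members were rebuilt from marker genes and may differ from the study's cluster. Members and gene lists were chosen with earlier results of these data known.

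UMIs of the members were summed per mouse and tested with edgeR 4.0.16 (TMM, filterByExpr, quasi-likelihood F test, 4 groups in 1 fit, Benjamini-Hochberg threshold 0.05), with DESeq2 1.42.0 as an alternative. The labels name no mouse. By the study's numbers of mice per group each library was taken as a separate mouse, so p-values measure the spread between these mice. CPM are the UMIs of a gene scaled to a common total over all genes of the members of a library. Shares were compared with exact two-sided permutation tests (scipy 1.17.1). Intervals (95%) cover counting error only. Libraries held 40,627 to 604,588 member UMIs and 24 to 288 members, and common dispersion was 0.0784. The edgeR step was tested on simulated data.

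Genes named in the text are the rule markers, the receptors, the 3 genes of each list with the highest CPM, the 15 with the largest ratio to other droplets and, per contrast, the 5 with the smallest unadjusted p in each direction where fewer than 5 passed. Other genes were named after their values were seen. A few genes that this rule takes are not reported here. Alternatives covered the choice of members, filters, normalization and each library left out.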

Additional observations from a re-analysis of the deposited data

Results flagged for a closer look

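Within each group, the highest and the lowest library were set against the nearest of the others by Dixon's test for 19 measures in groups of 4 or 5 libraries. Of 55 sets examined 8 were marked, where chance alone marks about 1 in 20.

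Esr1cKO tamoxifen replicate 3 was far from its group in 2 measures. The study's ependymal list had a median deviation of -1.91 there against 0.31 in the nearest library, and 11.4% of its members' UMIs lay on genes over 100 kb against 19.3%. Wild-type oil replicate 3 has similar values but belongs to a group of 3, which was not examined.

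In wild-type tamoxifen replicate 2 the summed choroid plexus markers stood at 97,050 CPM against 258.5 CPM, carried by 3 droplets with Ttr. In wild-type tamoxifen replicate 5 the median mitochondrial share of members was 2.30% against 3.94%.

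The other 4 were counts of a few UMIs. Gper1 was at 11.1 CPM in wild-type tamoxifen replicate 5 against 2.06 CPM, and at 16.02 CPM in Esr1cKO tamoxifen replicate 1 against 0. Pgr was at 3.11 CPM in Esr1cKO oil replicate 3 against 0. Nkx2-1 was at 73.8 CPM in Esr1cKO tamoxifen replicate 2 against 32.7 CPM.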

How the results depend on the processing

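Counts of genes past an adjusted p of 0.05 stayed at 0 in wild-type mice, Esr1cKO mice, the difference of the effect and genotype under every alternative except these. Without a filter on low counts there were 5, 11, 49 and 3. For the difference of the effect there was 1 with shared barcodes left out (chosen after seeing the data), and 6 without wild-type oil and Esr1cKO tamoxifen replicates 2, a pair planned from an earlier numbering. With each library left out in turn the counts were 0 to 3 in Esr1cKO mice (3 without Esr1cKO tamoxifen replicate 4), 0 to 4 for the difference of the effect (4 without that library, 3 without wild-type oil replicate 2) and 0 elsewhere. The cause was not tested.

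The pair of libraries that stand apart, the shared barcodes, the libraries numbered 13 to 16 and the members with 20 or more Ttr UMIs were left out as alternatives chosen after seeing the data. Without the pair, the median of the study's list for the difference of the effect was -0.0124 in place of -1.01, and the wild-type share difference was 1.01 points. With each library left out, the share differences ranged from -2.64 to 1.01 points in wild-type mice (1.01 without wild-type oil replicate 3), from 0.439 to 2.12 in Esr1cKO mice, and from -1.25 to 0.0272 between genotypes (0.0272 without the same library). Other settings moved the share differences by over 1.5 times. Under 5% mitochondrial UMIs they were 0.068 points in Esr1cKO mice and -2.29 between genotypes, with more than 500 genes 2.59 and -1.66, and without the pair 0.439 and -0.477. With none of the excluded genes the genotype difference was -0.458, without libraries 13 to 16 the wild-type difference was -2.06, and with the planned pair left out the treatment differences were -2.26 and 2.12. None of these passed the exact permutation test. For Akap6 the difference of the effect passed an adjusted p of 0.05 in edgeR (0.00942 to 0.0472) in 5 alternatives, with values of -2.56 to -3.03. Tnr passed it in 4 (edgeR adjusted p = 0.00626 to 0.0472) and Map2k6 in 3 (0.0154 to 0.0351) alternatives. In Esr1cKO mice Hba-a1, Hbb-bs and Hba-a2 passed without the filter on low counts, and Hba-a1, Hbb-bs and Ppp3cc without Esr1cKO tamoxifen replicate 4 (edgeR adjusted p = 0.035 for each). For the difference of the effect the 3 haemoglobin genes passed without that filter, and Hba-a1 also without that library. Ppp3cc passed for the difference of the effect without that library, as did Synpr, Arl15 and Gpr133 without the filter. Ttr, below the filter otherwise, passed without it in both genotypes. No other gene named in the report passed in the edgeR and DESeq2 alternatives run.

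Replicate numbers are not shared mice, and runs of 4 successive library numbers were tried as a block. In expression, libraries of the same run but other groups deviated together by a mean r of 0.0679 (-0.136 to 0.716, 23 pairs). Between runs it was -0.0206 (-0.414 to 0.311, 72 pairs), so libraries were not taken as paired. The permutation tests of shares did not use the runs either, although the mean share was 1.34, 1.69, 5.72 and 3.91% in the 4 runs. With this replicate block edgeR called 0 genes in each comparison, with 131 to 392 at an unadjusted p under 0.05. With members under 5% mitochondrial UMIs, Esr1cKO oil replicate 4 had under 10 members and was left out.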
